A study of Mus musculus with 6 samples.

Results

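A set of genes that mark haematopoietic stem and progenitor cells, Cd34, Meis1, Hlf, Erg, Hoxa9, Sox4, Myct1, Egfl7, Procr and Cd48, were followed in RNA-seq libraries of mouse bone marrow. They were taken by symbol, as 10 of the 45706 genes in the count table. The study set marrow cultured in conditioned medium, meaning medium in which tumour cells had grown (4 libraries), against marrow in control medium (2 libraries). Each conditioned library came from the medium of 1 clear cell renal cell carcinoma (ccRCC) cell line, VpR83, VpR99, VpR126 or VpR2020. The sources used here give no strain, genotype, age, culture time or number of animals. The 4 lines served as replicates of conditioned medium, so the spread behind each p-value includes differences between the lines. The rest of that spread, such as that between the 2 controls, may be technical. For the comparator, the labels of the samples say control medium, whereas the series design says marrow that was freshly isolated. Medium and time in culture therefore cannot be told apart.

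Haematopoietic stem cells sit at the top of blood formation in the bone marrow and give rise to progenitors that divide, commit to a lineage and lose stem cell genes on the way. Their identity rests on a network of transcription factors, among them ETS, HOX, TALE and PAR bZIP proteins, and they are sorted by surface proteins. Several of the network's genes are also used by endothelial cells, since blood and vessel cells share an embryonic origin. In the mouse, stem cells carry EPCR, the product of Procr, and lack CD48, while CD34 is on progenitors and on part of the stem cells.

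Total counts per library were 19412158 to 28055913 in 3 conditioned libraries, 129120559 in VpR99, and 27448621 and 18629708 in control replicates 1 and 2. A count of 0 allowed up to 3 counts, or 0.0243 to 0.166 CPM (counts scaled to library size), for counting error only. The control libraries held the marrow lineages: summed markers reached 2130 to 2747 CPM for erythroid progenitors and 4226 to 4327 CPM for granulocyte progenitors. In the conditioned libraries the erythroid sum was 78.6 to 401 CPM, and Car1, Slc4a1 and Rhag, which encode red cell proteins, had 0 counts in all 4. All 12 macrophage markers were called higher in conditioned medium, with sums of 17085 to 31715 CPM, against 518 to 541 CPM in the controls. The part of these shifts in the results below was not tested. Unexplained tags stand in 3 column headers of the count table, Ctrl for VpR83, T1 for VpR99 and LT2 for VpR126.

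The stem and progenitor genes split 3 ways. Cd34, Erg, Egfl7 and Hlf fell in conditioned medium, by 3.85-fold to 6.27-fold. Procr rose 6.97-fold and Cd48 2.26-fold. Meis1, Hoxa9, Sox4 and Myct1 were not called, and each had at least 1 line that was not below both controls. Calls were made with edgeR's quasi-likelihood test at a Benjamini-Hochberg adjusted p below 0.05 over all 15141 genes tested. All 10 passed the filter on low counts. Of the 10 genes, 4 were called lower, beside 19.7% of all genes tested, and 2 were called higher, beside 22.5%, so 6 of 10 were called where 42.2% of all genes were. For the same 6 genes the conditioned and control libraries did not overlap, as was the case for 65.3% of all genes tested. All 4 were below for 4 genes (33.3% of all genes) and above for 2 (32.0%). Without either control replicate 0 of the 10 were called higher and 1, Cd34, lower, and without VpR83 2 and 2. The median log2 fold change of the 10 was -0.86, and that of all genes -0.01. In such bulk libraries fewer cells of a type and less RNA per cell cannot be told apart. With 4 libraries against 2 an exact permutation test has 15 assignments and cannot go below p = 0.0667, which it gave for each of the 6 called genes (two-sided).

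**Figure D1:**
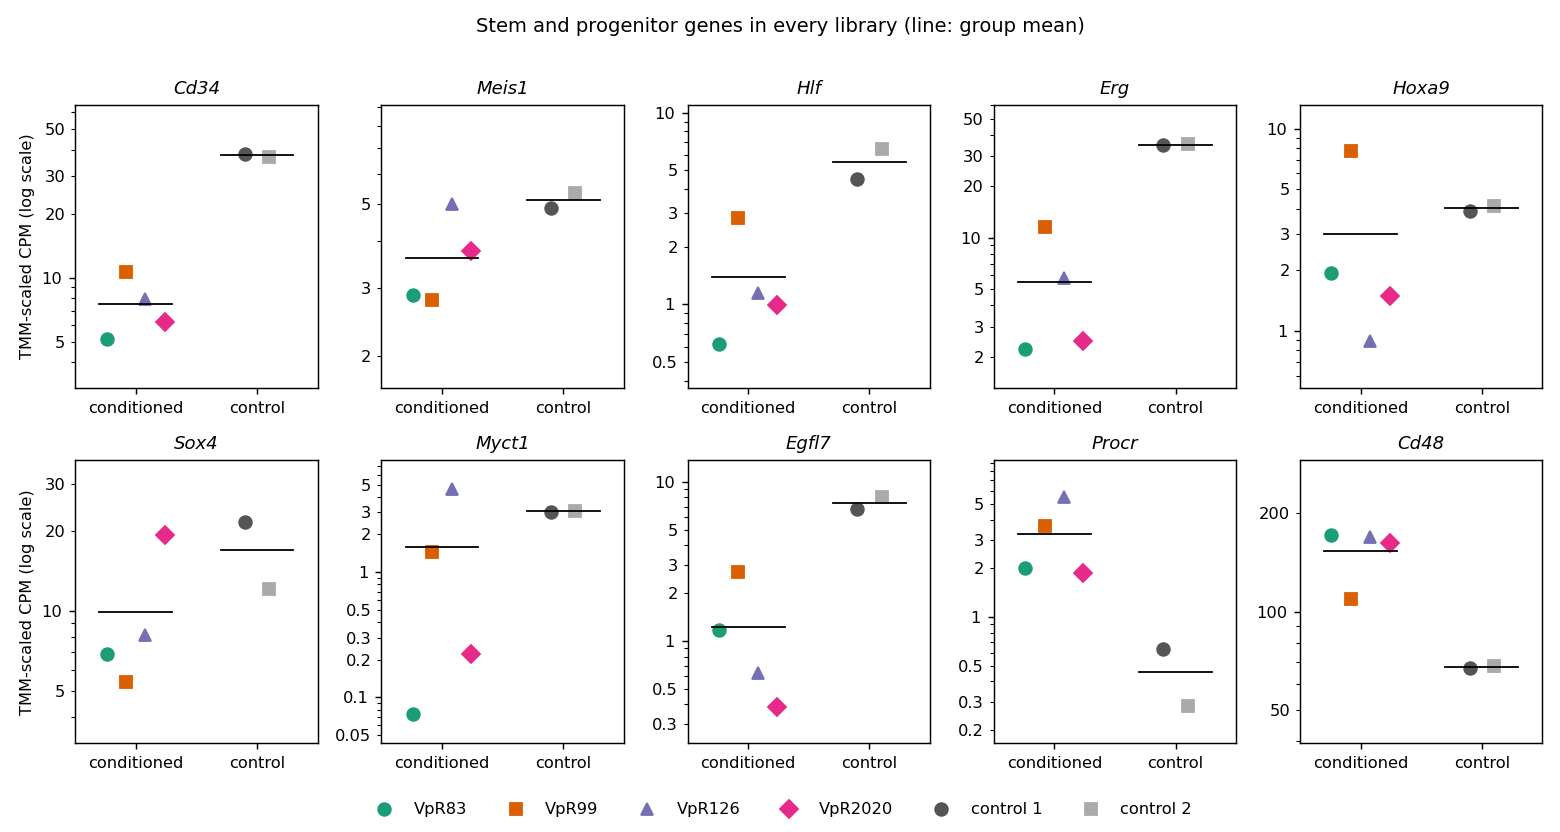
TMM-scaled CPM (log axis) of the 10 genes in each library, with 4 conditioned libraries on the left and 2 controls on the right of each panel; the horizontal lines are group means. All 4 conditioned libraries sit below both controls for Cd34, Hlf, Erg and Egfl7 and above them for Procr and Cd48, and the groups overlap for Meis1, Hoxa9, Sox4 and Myct1.

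Among the surface proteins, Cd34 (chromosome 1, 194938819 to 194961279, plus strand, GRCm38) encodes a sialomucin of progenitors and endothelial cells. It measured 5.16, 10.7, 7.94 and 6.20 CPM under VpR83, VpR99, VpR126 and VpR2020 medium, against 38.2 and 37.0 CPM in the controls. No conditioned library reached 30% of the pooled control level: the lines stood at 13.7%, 28.3%, 21.1% and 16.4%. The means were 7.49 ± 2.41 CPM in conditioned medium (SD, n = 4) and 37.6 ± 0.878 CPM in control medium (SD, n = 2). The log2 fold change was -2.32 ± 0.29 (SE, edgeR adjusted p = 0.0020). The call held in all 12 alternative analyses, between -2.56 and -2.17. An antisense gene, Gm16897, overlaps Cd34, but it held at most 7 counts in a library. Of the related sialomucin genes, Emcn fell by 4.09 ± 0.86 on the log2 scale (edgeR adjusted p = 0.0112) at low levels of 0.0415 ± 0.0436 CPM in conditioned and 0.585 ± 0.163 CPM in control medium (not called without control replicate 1 or 2, adjusted p = 0.102 and 0.0601), and Podxl was filtered out, with at most 2 counts in a conditioned library and 9 counts in each control.

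The promoters of Cd34, Egfl7 and Erg are shown because these 3 had the largest falls of the 4 genes called lower, of 4.99-fold, 5.80-fold and 6.27-fold. Each run is the 250 bases before a RefSeq start site (GRCm38.p6), printed 5′ to 3′ on the gene's strand, with capitals marking matches to 5 motifs. For Cd34 it is chr1:194938571-194938820 (plus strand), for Egfl7 chr2:26583615-26583864 (plus strand, the middle of its listed starts) and for Erg chr16:95459349-95459598 (minus strand, the last of its listed starts).
Cd34: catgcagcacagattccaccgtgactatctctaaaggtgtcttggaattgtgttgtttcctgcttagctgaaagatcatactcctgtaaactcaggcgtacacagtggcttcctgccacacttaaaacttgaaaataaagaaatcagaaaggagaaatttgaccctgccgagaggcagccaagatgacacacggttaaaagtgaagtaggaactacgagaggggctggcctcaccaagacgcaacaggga
Egfl7: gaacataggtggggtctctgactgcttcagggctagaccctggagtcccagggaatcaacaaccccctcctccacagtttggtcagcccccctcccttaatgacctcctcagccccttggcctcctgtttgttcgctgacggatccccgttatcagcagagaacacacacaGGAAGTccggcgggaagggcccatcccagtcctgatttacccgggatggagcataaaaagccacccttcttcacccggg
Erg: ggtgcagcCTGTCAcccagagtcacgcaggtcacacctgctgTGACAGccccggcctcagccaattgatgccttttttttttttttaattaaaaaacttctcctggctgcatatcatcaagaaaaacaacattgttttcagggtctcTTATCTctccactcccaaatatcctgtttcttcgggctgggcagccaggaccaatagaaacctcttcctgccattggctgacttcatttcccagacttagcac
All motifs were searched on both strands, in all 32851 RefSeq windows of this length, and their letters do not contain one another. The ETS motif was GGAAGT, found in 19.7% of all windows. The GATA motif was AGATAA, found in 9.99%. The RUNX motif was TGTGGT, found in 14.0%. The MEIS motif was TGACAG, found in 15.9%. The E-box was CAGCTG, found in 13.0%. The Cd34 window holds none of these letters. In the Egfl7 window 1 ETS match lies 79 bases before the start. In the Erg window a GATA match on the opposite strand lies 103 bases before the start, and MEIS matches lie 242 and 208 bases before it. The windows of the other 2 listed Erg starts hold none of the motifs. Of the other Egfl7 windows, that of the first start holds 2 ETS, 1 MEIS and 1 E-box match and that of the last holds none. The single Hlf window, not printed, also holds none. Of the 10 genes, 3 have an ETS match in at least 1 of their windows, 2 GATA, 2 RUNX, 2 MEIS and 3 the E-box. A match is a description of letters and not a bound site.

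Procr (chromosome 2, 155751117 to 155755471, plus strand) encodes the endothelial protein C receptor EPCR, which binds protein C and is used to sort mouse stem cells. Its level was 2.01, 3.64, 5.49 and 1.88 CPM under VpR83, VpR99, VpR126 and VpR2020 medium, against 0.633 and 0.282 CPM in the controls. Each line was above both controls, although Procr stayed a low transcript: the controls held 19 and 6 counts. Means were 3.26 ± 1.69 CPM in conditioned and 0.458 ± 0.248 CPM in control medium, or 2.80 ± 0.67 on the log2 scale (edgeR adjusted p = 0.0173). Without control replicate 1 the log2 fold change was 3.51 (adjusted p = 0.0673), and without control replicate 2 it was 2.38 (0.117). Over the 12 alternatives the adjusted p ranged from 0.000104 to 0.117. Of the other genes looked at around protein C, Thbd, which encodes thrombomodulin, measured 22.8 ± 6.0 CPM in conditioned and 25.8 ± 5.59 CPM in control medium (-0.18 ± 0.28, not called). F2rl1, a protease-activated receptor gene, fell by 3.83 ± 0.64 (not called without control replicate 1, adjusted p = 0.0572), while its relatives F2r and F2rl2 were not called (-0.63 ± 1.35 and 1.68 ± 1.62). The protein C gene Proc had 0 counts in every library.

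Cd48 (chromosome 1, 171682009 to 171705258, plus strand) encodes a SLAM family protein that most blood cells carry and that mouse stem cells lack. It had 171, 109, 169 and 162 CPM under VpR83, VpR99, VpR126 and VpR2020 medium, against 67.1 and 68.2 CPM in the controls. The other lines lay close together and VpR99 was lower, yet still above both controls. The means of 153 ± 29.5 CPM in conditioned and 67.7 ± 0.754 CPM in control medium gave a log2 difference of 1.17 ± 0.22 (edgeR adjusted p = 0.0078). Leaving out control replicate 1 or 2 kept the value at 1.16 and 1.20 and ended the call, with adjusted p of 0.0745 and 0.0648, in a range of 6.18e-05 to 0.0745 over the alternatives.

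A list of the SLAM family and its relative Cd2 held 10 tested genes, Cd48 included. Of these, 3 rose, 1, Cd2 itself, fell and 6 were not called, with a median log2 fold change of 0.86. Beside these, 22.5% of all genes tested rose and 19.7% fell. Without either control replicate 1 was called higher and 0 lower, and without VpR126 3 higher and 3 lower. Cd84 reached 547 ± 95.8 CPM in conditioned medium, against 122 ± 3.50 CPM in control medium (2.17 ± 0.22, edgeR adjusted p = 0.0012). Ly9 reached 180 ± 71.8 CPM in conditioned medium, against 40.7 ± 0.869 CPM in control medium (2.14 ± 0.38, adjusted p = 0.0067). Both encode receptors of mature blood cells. Cd2, a gene of T cells and other lymphocytes, fell by 3.50 ± 0.71 (adjusted p = 0.0101). Slamf1, which encodes the stem cell marker CD150, measured 0.110, 0.284, 7.14 and 0.277 CPM under VpR83, VpR99, VpR126 and VpR2020 medium, against 1.07 and 1.5 CPM in the controls, and was not called (0.59 ± 1.65). Its level was above control only under VpR126 medium among the 4 lines. Slamf8 showed a like spread, with 116 CPM under VpR126 medium and 2.71 to 18.8 CPM under the other media, against 2.40 and 3.10 CPM in the controls (3.73 ± 1.62, not called).

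Among the transcription factors, Erg had the largest fitted fall of the 10 genes over all 6 libraries, close to that of Egfl7. Erg (chromosome 16, 95359169 to 95586593, minus strand) encodes an ETS factor that adult stem cells require. It measured 2.23, 11.6, 5.83 and 2.49 CPM under VpR83, VpR99, VpR126 and VpR2020 medium, against 34.9 and 35.5 CPM in the controls. All lines were far below the controls, and VpR99 stood 5.17-fold above VpR83 (counting interval 4.0 to 6.80). The means were 5.53 ± 4.34 CPM in conditioned and 35.2 ± 0.391 CPM in control medium, or -2.65 ± 0.64 on the log2 scale (edgeR adjusted p = 0.0182). The call ended with no filter on low counts (adjusted p = 0.0543) and without control replicate 1 or 2 (0.0850 and 0.0877), in a range of 0.000211 to 0.0877 over the alternatives. Without VpR99 the log2 fold change was -3.32. Fli1, the nearest relative of Erg among the genes tested, rose to 115 ± 13.2 CPM in conditioned medium, against 76.3 ± 2.26 CPM in control medium (0.60 ± 0.15, adjusted p = 0.0226). With upper-quartile scaling Fli1 was not called (0.39, adjusted p = 0.0921), nor with library totals (0.35, adjusted p = 0.0892), nor without control replicate 1 or 2 (adjusted p = 0.126 and 0.137). The other gene of that ETS subgroup, Fev, had 0 counts in every library.

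Hlf (chromosome 11, 90336536 to 90390895, minus strand) encodes a PAR bZIP factor whose expression marks stem cells and is lost as progenitors commit. It had 0.622, 2.82, 1.14 and 0.996 CPM under VpR83, VpR99, VpR126 and VpR2020 medium, against 4.53 and 6.49 CPM in the controls. Only 17, 27 and 18 counts lay behind the values of VpR83, VpR126 and VpR2020, and 348 behind that of VpR99. Means of 1.39 ± 0.976 CPM in conditioned and 5.51 ± 1.38 CPM in control medium gave a log2 difference of -1.94 ± 0.59 (edgeR adjusted p = 0.0384). This call was the least stable of the 6. It ended in 5 of 12 alternatives: without control replicate 1 or 2 (adjusted p = 0.109 and 0.198), and without VpR83 (0.0590), VpR126 (0.0656) or VpR2020 (0.0871), in a range of 0.0064 to 0.198, while without VpR99 the log2 fold change was -2.58. The other PAR bZIP genes, which encode clock-controlled factors, were called higher over all 6 libraries. Dbp measured 11.9 ± 6.11 CPM in conditioned and 2.33 ± 0.0922 CPM in control medium (2.34 ± 0.63, adjusted p = 0.0255), and Tef 56.3 ± 20.04 CPM in conditioned and 16.6 ± 0.0413 CPM in control medium (1.76 ± 0.40, adjusted p = 0.0143). Both calls ended without control replicate 1 or 2, with adjusted p of 0.145 and 0.130 for Dbp and 0.101 and 0.0929 for Tef. Nfil3, a repressor that binds the same sites, was not called (-0.31 ± 0.40).

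Meis1 and Hoxa9 encode partners, a TALE and a HOX protein, that bind DNA together and keep progenitors from differentiating. Meis1 (chromosome 11, 18879817 to 19018985, minus strand) had 2.89, 2.80, 4.98 and 3.76 CPM under VpR83, VpR99, VpR126 and VpR2020 medium, against 4.87 and 5.36 CPM in the controls. VpR126 lay between the controls and the other 3 lines below both. With means of 3.61 ± 1.01 CPM in conditioned and 5.11 ± 0.348 CPM in control medium, the log2 fold change was -0.51 ± 0.33 (edgeR adjusted p = 0.246). It was the gene with the smallest spread between lines after Cd48, at 1.78-fold from lowest to highest.

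Hoxa9 (chromosome 6, 52223100 to 52231089, minus strand) measured 1.94, 7.73, 0.887 and 1.49 CPM under VpR83, VpR99, VpR126 and VpR2020 medium, against 3.93 and 4.14 CPM in the controls. VpR99 was at 192% of the pooled control level (counting interval 165% to 225%) and the other lines at 48.3%, 22.1% and 37.2%. The group means of 3.01 ± 3.17 CPM in conditioned and 4.03 ± 0.143 CPM in control medium did not separate (-0.39 ± 0.84, edgeR adjusted p = 0.725). Without VpR99 the log2 fold change was -1.48 and was called (adjusted p = 0.0362), where the 12 alternatives ranged from 0.0362 to 0.946. Mir196b, which lies in an exon of some annotated Hoxa9 transcript, had 0 counts in every library, and mature miRNAs were not measured by these libraries.

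Of 26 HOX and TALE genes, 16 were tested: 3 rose, 5 fell and 8 were not called, with a median log2 fold change of -0.42. Among all genes tested 22.5% rose and 19.7% fell. Without control replicate 1 or 2, 0 and 1 were called higher and 1 lower in each case. Without VpR83 or VpR2020, 2 were lower, and with no filter on low counts 2. The genes on either side of Hoxa9 were also highest under VpR99 medium among the lines. Hoxa7 had 1.39, 4.05, 0.634 and 0.443 CPM under VpR83, VpR99, VpR126 and VpR2020 medium, against 2.27 and 2.58 CPM in the controls (-0.52 ± 0.86, not called). Hoxa10, filtered out for low counts, had 40 counts (0.324 CPM) under VpR99 medium and 0 or 1 count under the other media, against 10 and 4 counts (0.333 and 0.188 CPM) in the controls. Hoxa3 fell by 1.77 ± 0.52 (edgeR adjusted p = 0.0347). In the HOXB cluster, Hoxb3 rose by 2.84 ± 0.82 (adjusted p = 0.0318), and Hoxb4, which encodes a factor known for expanding stem cells, was not called at 8.79 ± 2.95 CPM in conditioned and 4.84 ± 1.52 CPM in control medium (0.86 ± 0.38). Of the TALE cofactors, Pbx4 fell by 3.34 ± 0.34, Pbx2 by 0.56 ± 0.17 and Pknox1 by 0.45 ± 0.12. Meis3, a relative of Meis1, rose to 6.26 ± 2.24 CPM in conditioned medium, against 1.17 ± 0.143 CPM in control medium (2.42 ± 0.45, adjusted p = 0.0076). Pbx3 was not called (0.20 ± 0.29, and -0.01 with upper-quartile scaling), nor was Pknox2, whose level was also highest under VpR99 medium, at 3.58 CPM, against 1.4 and 1.79 CPM in the controls.

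Sox4 (chromosome 13, 28948919 to 28953713, minus strand) encodes an SRY-related factor of early lymphoid and myeloid progenitors. It had 6.88, 5.43, 8.11 and 19.4 CPM under VpR83, VpR99, VpR126 and VpR2020 medium, against 21.7 and 12.1 CPM in the controls. VpR2020 lay between the 2 controls and the other lines below both. The controls themselves lay apart. The means of 9.95 ± 6.37 CPM in conditioned and 16.9 ± 6.74 CPM in control medium gave -0.77 ± 0.54 (edgeR adjusted p = 0.282). Without VpR2020 the log2 fold change was -1.30 and was called (adjusted p = 0.0332, in a range of 0.0332 to 0.795 over the alternatives). Its relative Sox12 fell by 2.67 ± 0.60 (adjusted p = 0.0138), to 1.95 ± 1.24 CPM in conditioned medium, against 12.7 ± 2.23 CPM in control medium, and was not called without control replicate 1 or 2 (adjusted p = 0.0641 and 0.0882). Sox11 was filtered out, with at most 4 counts in a library.

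Egfl7 and Myct1 are shared by stem cells and endothelium. Egfl7 (chromosome 2, 26580014 to 26593120, plus strand) encodes a secreted protein of the vessel wall. It measured 1.17, 2.72, 0.634 and 0.387 CPM under VpR83, VpR99, VpR126 and VpR2020 medium, against 6.73 and 8.08 CPM in the controls. Every line was below both controls, VpR2020 on 7 counts. The means of 1.23 ± 1.045 CPM in conditioned and 7.41 ± 0.955 CPM in control medium gave a log2 difference of -2.54 ± 0.70 (edgeR adjusted p = 0.0281). The call ended without control replicate 1 or 2 (adjusted p = 0.104 and 0.132) and without VpR83 (0.0602), in a range of 0.0016 to 0.132 over the alternatives, and without VpR99 the log2 fold change was -3.31. The 3′ end of Egfl7 overlaps that of Agpat2 on the opposite strand, which had 513 to 5170 counts in conditioned and 1989 to 2599 counts in control libraries. The sources used here do not give the strand setting of the counting, so reads of the 2 genes in the overlap cannot be told apart. Its relative Egfl8 was not called (-0.33 ± 0.57).

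Egfl7 also hosts miR-126, a miRNA known for keeping stem cells quiescent and for its place in vessels, and Hoxa9 hosts miR-196b, which targets HOX transcripts. Their mature sequences (RefSeq, GRCm38.p6) are given with the seed, bases 2 to 8, in capitals, since the host transcripts are what these libraries measured and the precursor genes had 0 counts.
mmu-miR-126a-3p: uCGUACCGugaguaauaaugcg
mmu-miR-196b-5p: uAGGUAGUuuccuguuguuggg
The first lies at chr2:26591402-26591423 on the plus strand, the second at chr6:52230129-52230150 on the minus strand. Each falls in an exon of some annotated transcript of its host, of which Egfl7 has 19 and Hoxa9 5. Whether that exon is part of the main form was not looked at. Their seeds differ.

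Myct1 (chromosome 10, 5593775 to 5606904, plus strand), a membrane protein gene of stem cells and endothelium, was the most variable of the 10 between lines. It had 0.0732, 1.43, 4.60 and 0.221 CPM under VpR83, VpR99, VpR126 and VpR2020 medium, against 3.0 and 3.10 CPM in the controls. These values rest on 2, 177, 109 and 4 counts. VpR126 was at 151% of the pooled control level (counting interval 117% to 195%) and VpR83 at 2.41% (0.289% to 8.84%). The means of 1.58 ± 2.10 CPM in conditioned and 3.05 ± 0.0722 CPM in control medium gave -0.94 ± 1.27 (edgeR adjusted p = 0.571). Without VpR126 the log2 fold change was -2.19 (adjusted p = 0.117, in a range of 0.117 to 0.735 over the alternatives).

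Line by line, the 10 genes did not rank the 4 media in 1 order. Below both controls were 8 of them under VpR83, 7 under VpR99, 6 under VpR126 and 7 under VpR2020 medium. Of all 15141 genes tested, 7207, 6915, 7152 and 7258 were below both controls under these media in the same order. Above both controls were Procr and Cd48 under all 4 media, Hoxa9 under VpR99 and Myct1 under VpR126. Over all genes tested, 6664, 6831, 6738 and 6657 were above both controls in that order of media. The median level of the 4 genes called lower was 12.7% of pooled control under VpR83, 35.1% under VpR99, 18.8% under VpR126 and 11.8% under VpR2020 medium. VpR99 was the highest line for Cd34, Hlf, Erg, Hoxa9 and Egfl7, 5 of the 10 genes, where it was the highest for 28.9% of all genes tested. VpR126 was the highest for Meis1, Myct1 and Procr. With 1 library per line no test of a single line was run, and the intervals of these ratios cover counting error only. The ratio of the highest to the next line was 3.98 for Hoxa9 (3.02 to 5.36), 3.21 for Myct1 (2.5 to 4.10), 2.47 for Hlf (1.67 to 3.81) and 2.39 for Sox4 (2.0 to 2.86). For Meis1 and Cd48 the top lines did not differ beyond counting error, with ratios of 1.33 (0.975 to 1.81) and 1.01 (0.969 to 1.06). VpR99 is also the deepest library. With its counts thinned to the depth of the others, the same 2 and 4 genes were called between the groups. The ranking of the lines was not repeated on the thinned counts, so that run does not bear on it.

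**Figure D2:**
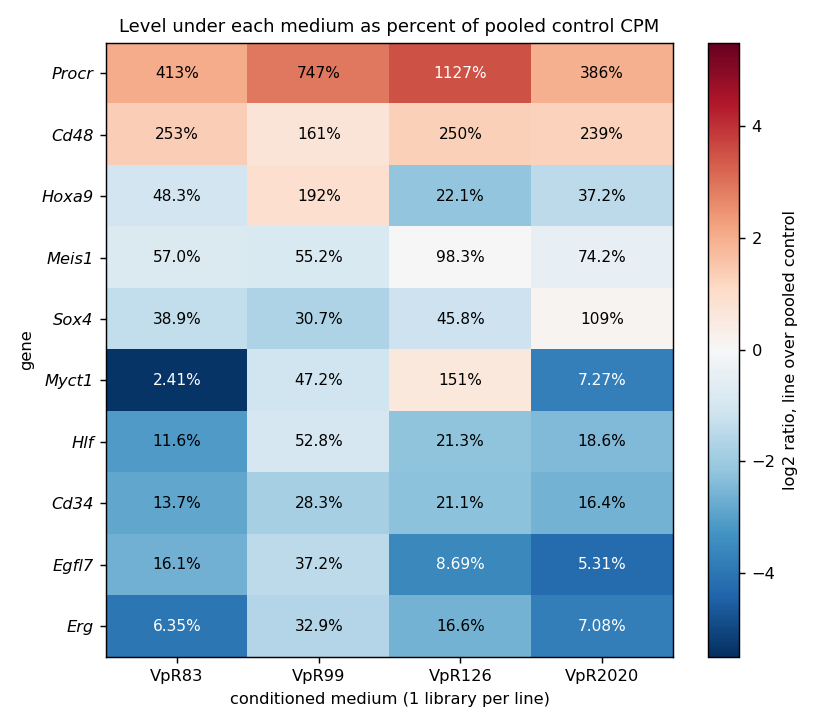
Level of each gene (rows) under each conditioned medium (columns, 1 library each) as percent of the pooled control CPM, coloured by the log2 ratio of the line over pooled control. Procr and Cd48 are above 100% in every column, Cd34, Hlf, Egfl7 and Erg below 53% in every column, and Hoxa9 (192% under VpR99), Myct1 (151% under VpR126) and Sox4 (109% under VpR2020) are above 100% in 1 column each.

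Hoxa9 and Myct1, the genes that were above both controls under 1 medium and below both under the others, were set beside markers of other cells. Sox4 also passed 100% of pooled control, at 109% under VpR2020 medium, but within the counting interval (96.4% to 124%) and between the controls. Of the 10 granulocyte progenitor markers, 8 were highest under VpR99 medium, as Hoxa9 was. Their median level was 11.3% of control under VpR83, 80.6% under VpR99, 16.9% under VpR126 and 10.7% under VpR2020 medium, and their summed level 795, 2988, 1289 and 802 CPM, against 4327 and 4226 CPM in the controls. Ctsg, which encodes cathepsin G, was at 124% of control under VpR99 and at 12.5% to 20.2% under the other media. No marker of this list was at 0 counts in any library. Of the 16 cell cycle genes, 15 were also highest under VpR99 among the conditioned media, and their median was 78.3% of control there and 21.9% to 64.5% elsewhere. Of the 12 megakaryocyte markers, all 12 were above both controls under VpR126 medium, and 9 were highest there, as Myct1 was. Being highest there was not particular to that list. VpR126 was the highest line for 31.7% of all genes tested, 10 of 11 stromal, 12 of 14 lymphocyte and 8 of 10 mast cell and basophil markers. It was also the highest for 7 of 12 lymphoid-primed and early B markers and 17 of 32 other stem and progenitor genes. Of the genes on these lists, in the order named, 1, 2, 0, 1 and 13 were above both controls under VpR126 medium. The 12 macrophage markers were all above there, as were 6738 of the 15141 genes tested. The median level of the megakaryocyte markers was 10.5% of control under VpR83, 27.5% under VpR99, 552% under VpR126 and 41.4% under VpR2020 medium. Gp6, a platelet collagen receptor gene, was at 1683% of control under VpR126 and at 10.1% to 45.9% under the other media, and Treml1 was above 100% under all 4. The summed megakaryocyte level, 802 to 2536 CPM in conditioned and 137 to 164 CPM in control libraries, was carried by the chemokine genes Pf4 and Ppbp. Of the 15 endothelial markers tested, 8 were highest under VpR126 medium. Over the study 3 were called higher and 4 lower, beside 22.5% and 19.7% of all genes tested. Most of these calls ended when either control was left out, and without VpR126 3 were higher and 7 lower. The endothelial sum was 219 to 361 CPM in conditioned and 127 to 137 CPM in control libraries. The higher sum was carried mainly by Vwf (35.9 to 169 CPM in conditioned, 9.83 and 10.01 CPM in control libraries) and Fabp4 (21.1 to 69.0 CPM in conditioned, 6.80 and 5.59 CPM in control libraries). Under VpR126 medium Eng, which was not called, added to it, at 89.0 CPM against 24.2 and 36.4 CPM in the controls. In contrast, 10 of 15 markers were below both controls under VpR83 and under VpR99, 7 under VpR126 and 9 under VpR2020 medium. Among them were the vessel genes Cdh5, Emcn and Plvap under all 4. Of the 20 markers 3, 4, 1 and 8 were at 0 counts under VpR83, VpR99, VpR126 and VpR2020 medium, against 0 and 2 in the controls. The part of these cells in the values of Hoxa9 and Myct1 was not tested.

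**Figure D3:**
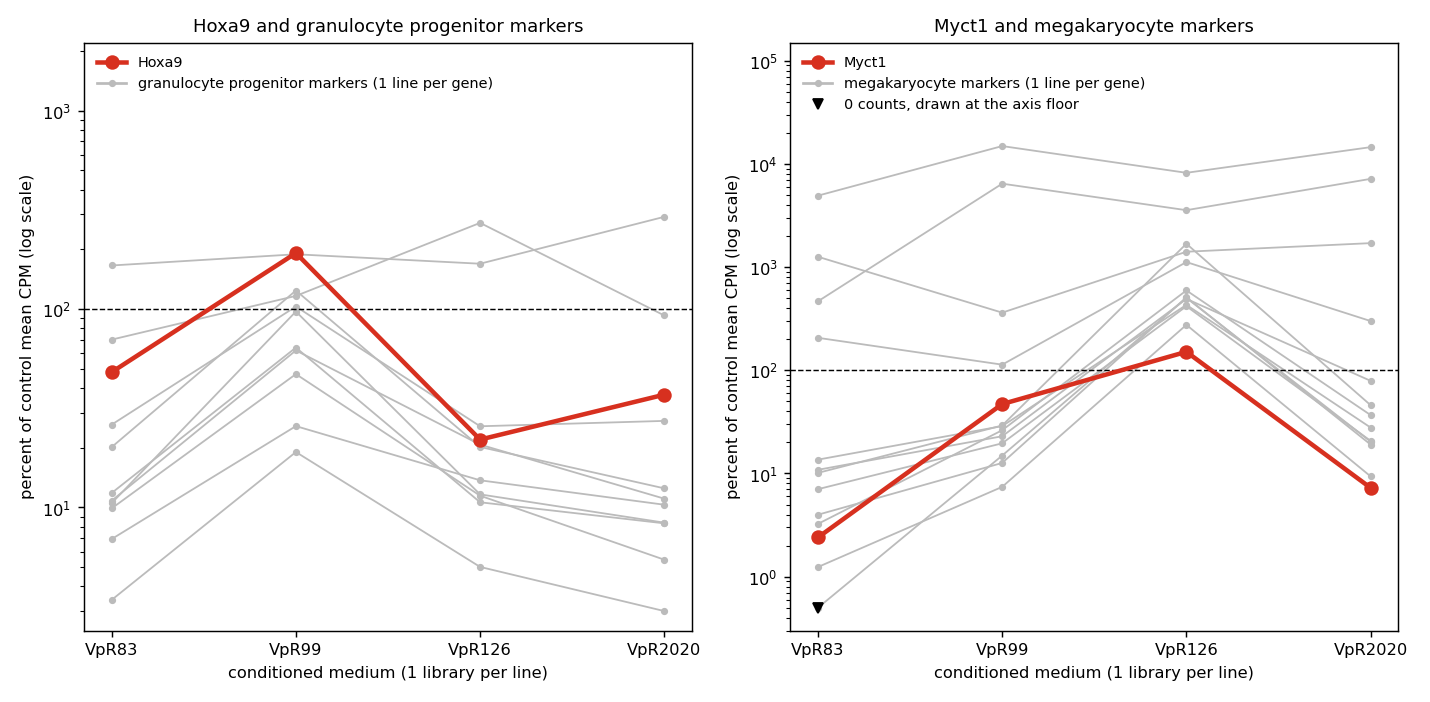
Percent of the control mean CPM (log axis, dashed line at 100%) under each conditioned medium for Hoxa9 with the granulocyte progenitor markers (left) and for Myct1 with the megakaryocyte markers (right), 1 line per gene and 1 library per medium. Hoxa9 and 8 of 10 markers peak under VpR99, and Myct1 and 9 of 12 markers peak under VpR126.

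Levels were compared between genes per kilobase of exon, as mean CPM per kb. In conditioned medium Cd48 came first at 128 ± 24.8, then Sox4 at 2.07 ± 1.33, Procr at 1.60 ± 0.833, Erg at 1.59 ± 1.25 and Cd34 at 1.03 ± 0.330. Myct1 (0.557 ± 0.740), Hoxa9 (0.540 ± 0.569), Meis1 (0.343 ± 0.0964), Egfl7 (0.343 ± 0.292) and Hlf (0.209 ± 0.146) followed, and from Sox4 down each gene differed from the next by less than the larger of their SDs (n = 4). In control medium the order was Cd48 at 56.9 ± 0.634, Erg at 10.2 ± 0.113, Cd34 at 5.16 ± 0.121, Sox4 at 3.52 ± 1.41, Egfl7 at 2.07 ± 0.267, Myct1 at 1.07 ± 0.0254, Hlf at 0.825 ± 0.207, Hoxa9 at 0.723 ± 0.0257, Meis1 at 0.485 ± 0.0330 and Procr at 0.225 ± 0.122 (SD, n = 2). There Hlf and Hoxa9 differed by less than the SD of Hlf, and the other neighbours by more than the larger SD. Procr ranked 3 of 10 in conditioned medium and last in control medium, and Erg ranked 4 in conditioned medium and 2 in control medium. Exon length is that of all annotated exons of a gene together, so a gene with many long forms has a lower value per kb.

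**Figure D4:**
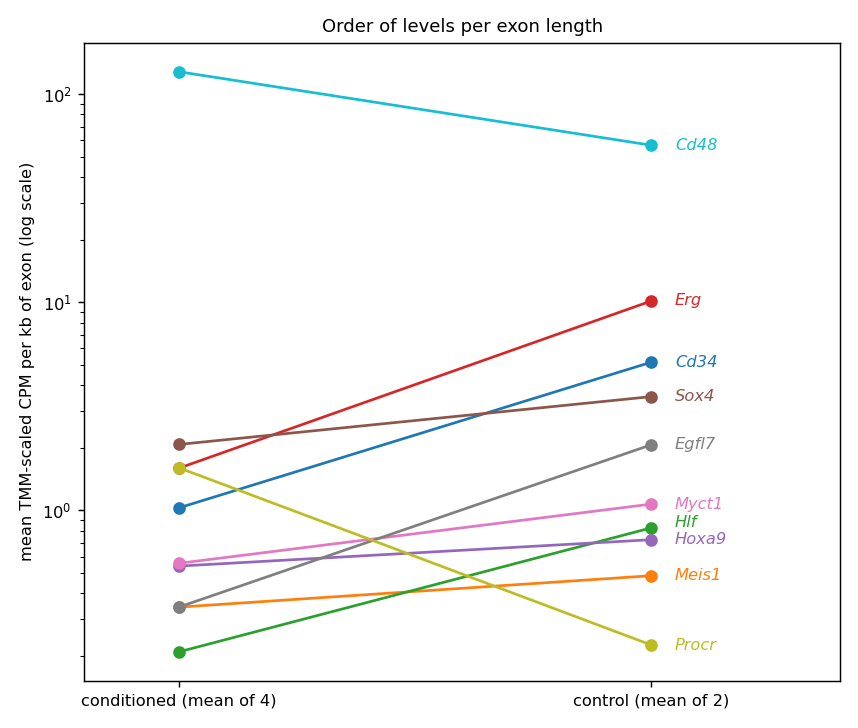
Mean TMM-scaled CPM per kb of exon (log axis) of the 10 genes in conditioned (left, mean of 4 libraries) and control medium (right, mean of 2), 1 line per gene. Cd48 leads in both, and the line of Procr crosses those of Meis1, Hoxa9, Hlf, Myct1, Egfl7, Cd34 and Erg.

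The wider stem and progenitor list held calls in both directions. Of its 36 genes 32 were tested, of which 5 rose, 13 fell and 14 were not called, with a median log2 fold change of -0.97. Over all genes tested 22.5% rose and 19.7% fell. Without either control replicate 2 rose and 4 fell, without VpR126 4 and 20, and with upper-quartile scaling 3 and 14. Gfi1b, a repressor gene of stem, erythroid and megakaryocytic cells, fell by 4.60 ± 0.93 (edgeR adjusted p = 0.0102), to 1.73 ± 1.87 CPM in conditioned medium, against 42.2 ± 5.63 CPM in control medium. Gata2, a zinc finger factor gene of stem and mast cells, measured 3.33 ± 2.60 CPM in conditioned and 46.1 ± 8.41 CPM in control medium (-3.80 ± 0.74, adjusted p = 0.0089). Robo4, a receptor gene of stem and endothelial cells, fell by 3.86 ± 0.73 (adjusted p = 0.0077) at levels below 1 CPM in every library. Cd93, a C-type lectin gene of progenitors, monocytes and endothelium, rose to 1125 ± 238 CPM in conditioned medium, against 94.9 ± 4.50 CPM in control medium (3.57 ± 0.28, adjusted p = 0.00065).

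Further genes of this list differed by over 2-fold without being called. Ly6a, which encodes the stem cell antigen Sca-1 and is induced by interferon, had 13.9, 654, 122 and 31.5 CPM under VpR83, VpR99, VpR126 and VpR2020 medium, against 9.23 and 11.98 CPM in the controls (4.28 ± 1.76, edgeR adjusted p = 0.0918). All 4 lines were above both controls, and the spread between the lines was wider than the gap of the lowest line to the controls. Tek (-2.82 ± 1.01), Angpt1 (-2.38 ± 1.52), Mycn (-1.33 ± 0.90), Ctla2a (-1.04 ± 1.26) and Hmga2 (2.18 ± 0.82) were likewise not called. Tek was called lower with upper-quartile scaling (-3.03, edgeR adjusted p = 0.0474). The following genes were chosen after their values were seen, as the best known of the list. Kit, the stem cell factor receptor gene, had 11.4 ± 6.34 CPM in conditioned and 73.0 ± 3.49 CPM in control medium (-2.67 ± 0.49, adjusted p = 0.0075). Flt3, a cytokine receptor gene of lymphoid-primed progenitors, had 4.73 ± 1.93 CPM in conditioned and 30.1 ± 2.5 CPM in control medium (-2.68 ± 0.41, adjusted p = 0.0042). Of the core transcription factors, Tal1 fell by 2.59 ± 0.18, Runx1 rose by 0.78 ± 0.16, and Lmo2 and Lyl1 were not called (0.04 ± 0.16 and -0.13 ± 0.21; Lmo2 was at -0.17 with upper-quartile scaling).

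**Figure D5:**
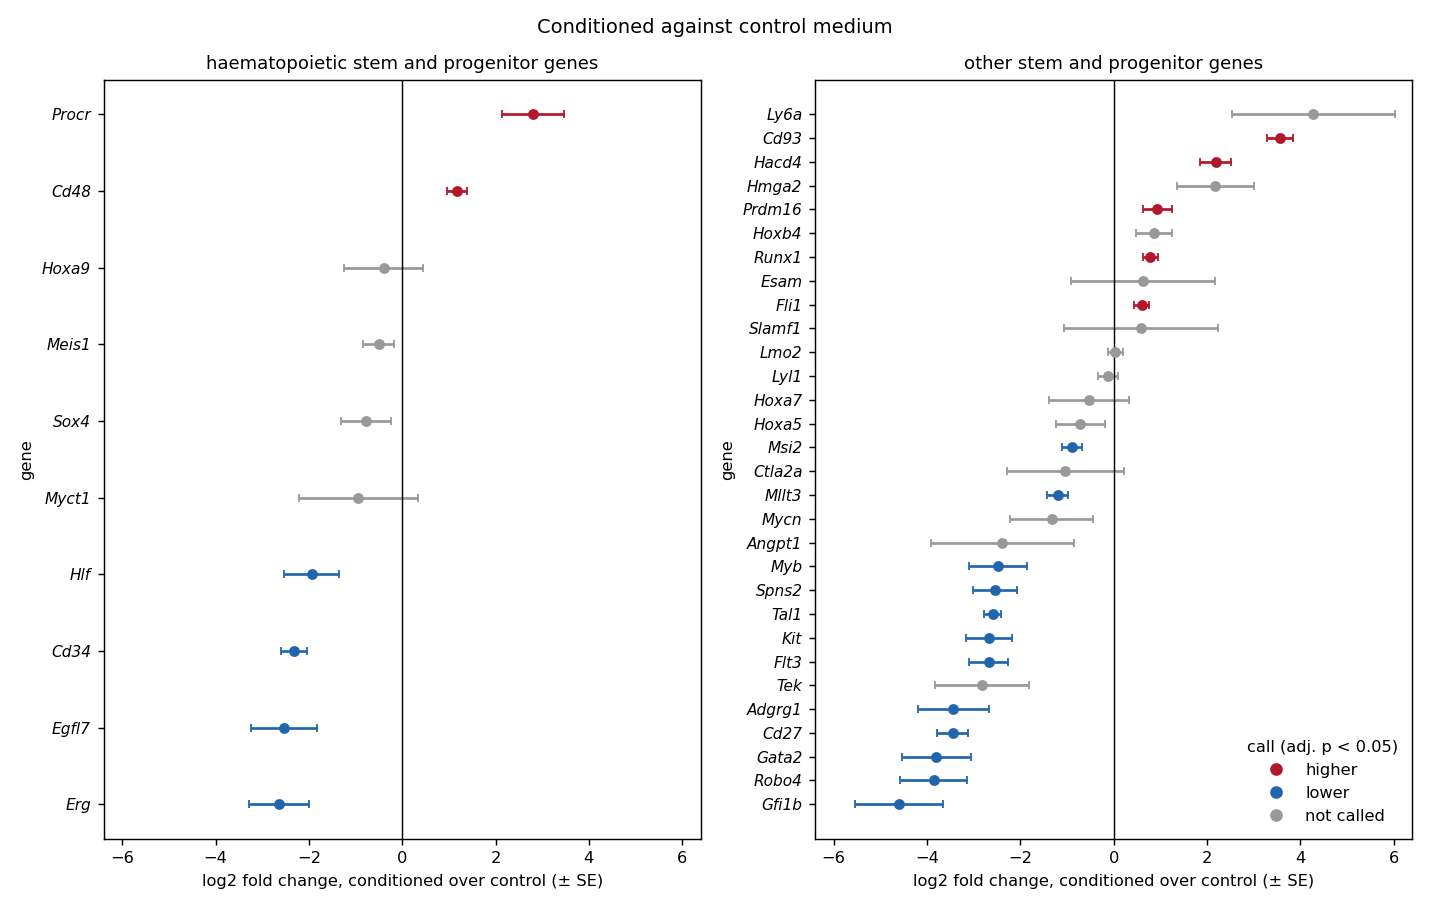
Log2 fold change of conditioned over control medium (± SE; n = 4 conditioned and 2 control libraries) for the 10 genes (left) and for 30 of the 32 other stem and progenitor genes tested (right), coloured by the call at edgeR adjusted p below 0.05. On the left 4 genes lie below 0 and 2 above it as called, and on the right 12 and 5.

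Markers of other marrow cells and cell cycle genes were counted beside these genes. The shares over all genes tested were 22.5% called higher and 19.7% called lower. Of the 12 lymphoid-primed and early B progenitor markers 7 fell and 5 were not called, with a median of -2.43. Dntt, which encodes terminal transferase, had 0.825 ± 0.280 CPM in conditioned and 65.5 ± 13.7 CPM in control medium (-6.25 ± 0.33, edgeR adjusted p = 0.00019). All 10 mast cell and basophil markers fell, with a median of -3.64, and 2 of them, Kit and Gata2, are also on the stem and progenitor list. Of the 10 erythroid progenitor markers 8 fell. Of the granulocyte progenitor markers 3 fell, 1 rose and 6 were not called. Mpo, the myeloperoxidase gene, measured 326 ± 339 CPM in conditioned and 1767 ± 43.5 CPM in control medium (-2.44 ± 0.80, adjusted p = 0.0481). Of the 11 stromal markers tested 9 fell, with a median of -4.25. Cxcl12, the niche chemokine that holds stem cells in the marrow, had 0.213 ± 0.151 CPM in conditioned and 22.6 ± 4.20 CPM in control medium (-6.87 ± 0.57, adjusted p = 0.00076). Kitl, the ligand of Kit, was the 1 stromal marker that rose, to 7.49 ± 2.60 CPM in conditioned medium, against 1.51 ± 0.215 CPM in control medium (2.30 ± 0.43, adjusted p = 0.0077). Of the 16 cell cycle genes 1 fell, Birc5, by 1.54 ± 0.50 (adjusted p = 0.0466), and 15 were not called, with a median of -0.97. Without VpR99, 9 of these 16 were called lower, and with upper-quartile scaling 8, but 0 without VpR83 and 0 with no filter on low counts. The granulocyte progenitor markers called lower numbered 8 of 10 without VpR99, 2 without VpR83 and 1 with no filter. For both lists fewer were called lower when either control was left out. Without control replicate 1 or 2 the markers called lower numbered 4 for mast cells and basophils, 3 for lymphoid-primed and early B progenitors, and 6 and 7 for stroma.

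For each of the 10 genes the 3 genes of nearest pattern were taken by the distance of centred log2 CPM over the 6 libraries, among 15131 other genes. They were chosen on these same values, so a highest line shared with the gene largely follows from the choice. Meis1 and Cd48 had the nearest partners: Card6 lay at a distance of 0.12 from Meis1, and Tspan17 and Rabep1 at 0.14 and 0.15 from Cd48. Erg was nearest to Ubash3a (0.32), Cd34 to Axin2 (0.33) and Procr to Dpep3 (0.35). Hlf was nearest to Chdh (0.46), Adgrg3 (0.49) and Nfe2 (0.51), all of which were highest under VpR99 medium among the conditioned libraries. Myct1 was nearest to Serpina3g (0.51), with 25.5 CPM under VpR126 and 0.622 to 6.27 CPM under the other media, against 15.9 and 11.98 CPM in the controls. The patterns of Sox4, Egfl7 and Hoxa9 had the most distant nearest genes: Cela1 (0.59), Apon (0.62) and Id1 (0.64). Id1 had 38.8 CPM under VpR99 and 4.14 to 6.77 CPM under the other media, against 22.0 and 15.6 CPM in the controls.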

How the data were processed

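RNA-seq was deposited for 6 libraries, 4 of conditioned and 2 of control medium. Per the labels' protocols, total RNA went into a stranded Illumina TruSeq kit. The submitters' processing notes name Trimmomatic 0.38, STAR 2.5.2b and GRCm38. The sources used here name no counting tool, strand setting or annotation release. Values, as deposited by the authors, are raw read counts per Ensembl gene without normalization. Columns were matched to samples by name. Symbols, coordinates and exon lengths came from GENCODE M21, which matched 45143 of 45706 identifiers.

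The test was edgeR 4.0.16 (R 4.3.3; filterByExpr, TMM, robust quasi-likelihood, two-sided), with group as the only term and Benjamini-Hochberg adjustment over 15141 genes. CPM values are TMM-scaled, with SD over libraries. The SE of a log2 fold change is its size divided by the root of the F statistic from edgeR, not a model SE. A line's percent of control is its CPM over the pooled control CPM, with an exact (Clopper-Pearson) 95% interval for counting error. For marker lists it is the percent of the control mean. The code was tested on simulated data. The 12 alternatives were DESeq2 1.42.0, other scalings (RLE, upper-quartile, library totals), no filter, VpR99 thinned, and each library left out.

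The 10 genes and the 14 further lists were chosen with earlier results of these data known. The rule named all 10 genes, up to 4 called genes per list with the largest fold change, genes not called with a log2 fold change beyond 1, any tested SLAM, HOX, TALE or related gene, and the 3 nearest patterns per gene. Filtered genes named for their counts, Kitl, Fabp4, Eng and Cdh5 fall outside it, as do Kit, Flt3, Tal1, Runx1, Lmo2 and Lyl1. They were chosen after their values were seen. A few genes counted in the lists are not reported here by name.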

Additional observations from a re-analysis of the deposited data

Results flagged for a closer look

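Among the 4 conditioned libraries, 1 library stood apart from the other 3 for 2 of the 10 genes, by the gap to its nearest neighbour over the whole range. For Hoxa9 this was VpR99, at 7.73 CPM with 0.887 to 1.94 CPM in the other lines, against 3.93 and 4.14 CPM in the controls (gap over range 0.846). For Cd48 it was again VpR99, at 109 CPM with 162 to 171 CPM in the other lines, against 67.1 and 68.2 CPM in the controls (0.849). All 10 genes were looked at in this way, and chance alone gives such a library in about 1 of 20 groups. Without VpR99, Hoxa9 was called lower (log2 fold change -1.48, edgeR adjusted p = 0.0362, range over the alternatives 0.0362 to 0.946), and Cd48 stayed called.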

How the results depend on the processing

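The log2 fold change of each of the 10 genes kept its sign in the 12 alternatives. Leaving out a library moved most: over these 6 settings genes called higher numbered 1283 to 3657 and genes called lower 918 to 3374, with 1283 and 918 without control replicate 1 and 1299 and 991 without control replicate 2, against 3410 and 2983 in all libraries. Where 1 control was left, it was assumed to vary like the conditioned libraries. Of the 10 genes 0 to 2 were then called higher and 1 to 5 lower, and of the other stem and progenitor genes 2 to 5 higher and 4 to 20 lower. With either control left out the counts were 0 higher and 1 lower of the 10, and 2 higher and 4 lower of the other stem genes. Without VpR83, 2 of the 10 were lower, and without VpR126, 20 of the other stem genes. Upper-quartile scaling and library totals each called 3 of the other stem genes higher. Over all genes the balance of calls turned with the scaling: higher genes were 53.3% of calls, but 40.02% with upper-quartile scaling (2738 higher, 4104 lower) and 38.6% with library totals (2627 and 4171). Over all genes these scalings put the median log2 fold change at -0.22 and -0.26, and TMM at -0.01. The cause of these shifts was not tested. Cd34 was called in all 12 alternatives, Procr and Cd48 in 10, Erg and Egfl7 in 9 and Hlf in 7. Few counts limit Hlf, Egfl7 and Myct1, which had 2 to 32 counts in VpR83, and Procr in the controls. No paired analysis was possible because the conditioned libraries carry no replicate numbers in the labels.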
